A study of Mus musculus with 4 samples.

Results

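The genes described here encode 10 acute-phase proteins, namely the serum amyloid A proteins (Saa1, Saa2, Saa3), the 3 chains of fibrinogen (Fga, Fgb, Fgg), lipocalin 2 (Lcn2), haptoglobin (Hp), orosomucoid 1 (Orm1) and complement C3. They were chosen by family and selected on their measured signals, on all 4 arrays and in every contrast between them, so their values are given as a description. In the platform annotation 9 of the 10 had a probe set named for them, 10 probe sets in all, out of 12394 named genes on the array. C3 had none named for it there and is not analysed here.

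The series holds 4 mouse Affymetrix arrays. Each stands for 1 group and carries RNA pooled from 5 female nulliparous mice of C57BL/6 background. The groups were mammary tumors of Sca-1 knockout (KO) mice, mammary tumors of wild-type (WT) littermates, mammary gland of KO mice at 6 weeks of age and mammary gland of WT mice at 6 weeks. To induce the tumors, mice had received 15 mg of MP, a depot progestin, subcutaneously and then the carcinogen DMBA by gavage, 1 mg weekly for 4 doses. The protocol text attaches this treatment to all samples, but the gland groups are not labelled with it, and no age is given for the tumor mice. Sca-1 (stem cell antigen-1) is a cell surface protein of the Ly6 family. No probe set was named for its gene, so the knockout was not checked here. With 1 pooled array per group there is no replicate, no test and no p-value, and each difference below is one between 2 arrays. Only the tumors are labelled as induced, so a difference in treatment or age cannot be told apart from one in tissue.

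Acute-phase proteins are plasma and secreted proteins whose production increases in infection, injury and cancer. The liver is their main source, where interleukin-6, acting through STAT3, and interleukin-1 and TNF, acting through NF-kB and C/EBP factors, induce their genes. Several of them are also made outside the liver, Lcn2 by epithelia and neutrophils, Hp and Orm1 by fat cells, and Saa3 of the mouse by macrophages and fat cells.

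Promoter sequences are given for the genes that were bright in the tumors, except Hp, and for Fga, which was not bright. The sources used here held no promoter of Hp. The sequences are shown because the Saa genes lie in 1 cluster and the fibrinogen genes in another. Each runs from 250 bases before to 50 after the start of the gene, 5′ to 3′, from RefSeq on build GRCm38.p6. Capitals mark matches on either strand to any of 4 motifs, which are TTGCNNAA (C/EBP), CTGGGA (the core of type II interleukin-6 response elements), TTCNNNGAA (STAT) and GGGANNNNCC (NF-kB). The letters GGGA are shared by the motifs CTGGGA and GGGANNNNCC, and no matches overlapped in these 7 sequences.
Saa1 (chr7:46742931-46743230, minus strand): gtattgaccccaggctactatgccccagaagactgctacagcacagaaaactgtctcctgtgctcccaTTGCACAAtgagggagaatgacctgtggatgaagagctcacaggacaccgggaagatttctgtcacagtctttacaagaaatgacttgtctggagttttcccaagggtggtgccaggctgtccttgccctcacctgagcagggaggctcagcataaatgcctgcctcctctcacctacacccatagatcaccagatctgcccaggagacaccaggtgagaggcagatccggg
Saa2 (chr7:46751583-46751882, plus strand): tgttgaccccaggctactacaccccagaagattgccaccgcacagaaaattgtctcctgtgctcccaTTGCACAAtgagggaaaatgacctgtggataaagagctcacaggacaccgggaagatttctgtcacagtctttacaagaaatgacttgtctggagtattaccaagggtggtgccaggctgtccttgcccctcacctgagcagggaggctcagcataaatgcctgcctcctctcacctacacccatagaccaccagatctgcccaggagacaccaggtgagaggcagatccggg
Saa3 (chr7:46715627-46715926, minus strand): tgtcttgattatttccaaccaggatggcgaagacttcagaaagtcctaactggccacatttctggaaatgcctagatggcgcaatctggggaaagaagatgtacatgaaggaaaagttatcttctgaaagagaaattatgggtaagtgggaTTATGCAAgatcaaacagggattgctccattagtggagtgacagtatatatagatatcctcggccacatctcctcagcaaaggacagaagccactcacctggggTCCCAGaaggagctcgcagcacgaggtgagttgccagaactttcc
Fgb (chr3:83049814-83050113, minus strand): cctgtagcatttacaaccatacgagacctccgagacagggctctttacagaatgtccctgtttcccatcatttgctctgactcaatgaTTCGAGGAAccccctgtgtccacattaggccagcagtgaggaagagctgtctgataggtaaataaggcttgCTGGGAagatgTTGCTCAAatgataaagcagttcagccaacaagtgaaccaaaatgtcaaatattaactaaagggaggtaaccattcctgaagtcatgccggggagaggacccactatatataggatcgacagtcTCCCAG
Fgg (chr3:83007474-83007773, plus strand): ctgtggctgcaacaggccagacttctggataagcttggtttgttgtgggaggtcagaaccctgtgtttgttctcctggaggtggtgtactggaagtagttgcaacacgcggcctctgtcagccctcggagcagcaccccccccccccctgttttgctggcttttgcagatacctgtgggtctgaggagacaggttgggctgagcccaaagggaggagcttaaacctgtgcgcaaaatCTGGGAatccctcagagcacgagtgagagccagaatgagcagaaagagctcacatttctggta
Fga (chr3:83025903-83026202, plus strand): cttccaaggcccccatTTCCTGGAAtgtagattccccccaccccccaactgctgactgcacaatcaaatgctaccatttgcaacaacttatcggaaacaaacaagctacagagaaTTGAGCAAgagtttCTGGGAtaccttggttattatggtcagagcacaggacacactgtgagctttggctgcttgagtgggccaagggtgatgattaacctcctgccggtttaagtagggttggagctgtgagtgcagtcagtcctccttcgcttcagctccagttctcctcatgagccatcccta
Lcn2 (chr2:32387690-32387989, minus strand): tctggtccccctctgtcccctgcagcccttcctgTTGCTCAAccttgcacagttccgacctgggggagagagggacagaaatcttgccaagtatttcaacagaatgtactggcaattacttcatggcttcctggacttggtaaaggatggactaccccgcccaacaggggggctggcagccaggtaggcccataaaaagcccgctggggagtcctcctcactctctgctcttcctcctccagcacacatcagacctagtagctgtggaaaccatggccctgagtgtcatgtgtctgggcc

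A C/EBP match was present in 6 of the 7 promoters, all but that of Fgg, and in 10.8% of the 32851 promoters of the same length in the table. In Saa1 and Saa2 it read TTGCACAA, at positions -182 and -183 with the start base counted as 0. The 2 promoters were identical at 287 of 299 aligned bases, or 96%, while Saa1 and Saa3 were identical at 65.1% of 261. CTGGGA was found in Saa3, Fgb, Fgg and Fga, and in 31.8% of all promoters. The STAT motif was found in Fgb and Fga, and in 8.3% of all. No NF-kB match lay in these windows, against 20.7% of all promoters with one. Fga thus held the same 3 kinds of match as Fgb. These are matches of letters only.

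Signals are in the arbitrary linear units of the deposited values. A floor of 168, the median of all values, was used to call a probe set bright enough to compare, and it had to be reached on 1 array. Of the 9 genes with a probe set 8 passed, and Fga did not. The 3 Saa genes and Fgb reached the floor on both tumor arrays and on neither gland array, and Orm1 the other way round, so for these 5 genes the filter itself required a difference. Fgg, Lcn2 and Hp were past it on all 4 arrays. Differences are on the log2(signal + 27.3) scale, with the lower quartile of the pooled values as the offset. The scale understates differences of dim genes, and folds against a signal near background depend on it.

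**Figure D1:**
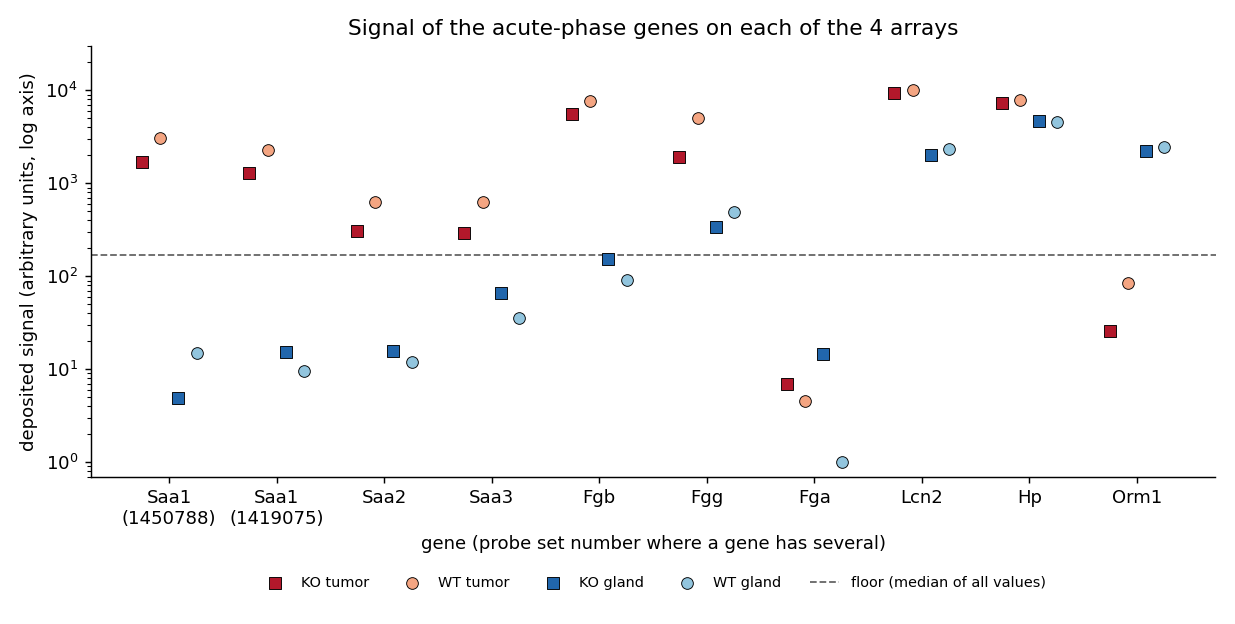
Deposited signal (log axis, arbitrary units) of the 10 probe sets on each array, with squares for KO, circles for WT, reds for tumors and blues for glands, and a dashed line at the floor of 168. The Saa, Fgb, Fgg and Lcn2 signals lie above those of the glands on both tumor arrays, Orm1 lies below them, and Fga is between 1.0 and 14.7 throughout.

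Across the arrays, 2 kinds of pattern stood out. Saa1, Saa2, Saa3, Fgb, Fgg and Lcn2 were higher in tumors than in glands of both genotypes, with differences between 1.78 and 6.19 on the log2 scale. Orm1 was bright in the glands and near background in the tumors, Hp was bright on all 4 arrays, and Fga was at background on all 4. Of the 9 measured genes, RNA of 7 was past the floor in the tumors, and that of Orm1 and Fga was not.

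The serum amyloid A proteins are small apolipoproteins of high-density lipoprotein that also act on leukocytes. Saa1, by the probe set 1450788_at, had signals of 1702 in the KO tumor and 3055 in the WT tumor, against 4.9 in the KO gland and 14.8 in the WT gland. Both tumor signals were far above both gland signals, and the gland signals were at background. The difference was 5.75 between KO tumor and KO gland (53.7-fold) and 6.19 between WT tumor and WT gland (73.2-fold). With the gland signals at background the size depends on the setting. Over the settings tried the difference of the gene ran between 3.43 and 6.29 in KO and between 4.14 and 7.76 in WT. The brightest probe set was chosen anew in each setting. At an offset of 1 it was the other one named Saa1, 1419075_s_at, which gave the upper ends.

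A further probe set named Saa1, 1419075_s_at, carries an accession that RefSeq assigns to Saa2, and its name marks it as one that may detect several transcripts. Its signals were 1289 in the KO tumor and 2295 in the WT tumor, against 15.5 in the KO gland and 9.6 in the WT gland. Saa2, by 1449326_x_at, had 306 in the KO tumor and 623 in the WT tumor, against 15.6 in the KO gland and 12.0 in the WT gland. The 3 probe sets thus had the same order of arrays for tumor over gland, and signals of Saa1 and Saa2 cannot be firmly assigned to one or the other of these near-identical genes. For Saa2 the difference was 2.96 in KO, between 1.37 and 4.21 over the settings tried, and 4.05 in WT, between 2.14 and 5.59.

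Saa3 had signals of 292 in the KO tumor and 626 in the WT tumor, against 65.7 in the KO gland and 35.5 in the WT gland. Its difference between tumor and gland was 1.78 in KO (3.43-fold) and 3.38 in WT (10.4-fold). The KO arrays thus lay closer to each other than the WT arrays did, with the KO tumor below the WT tumor and the KO gland above the WT gland. Saa3 was 0.98 higher in the KO tumor than in the KO gland with the median of all values (168) as offset, just short of 2-fold.

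The Saa genes lie side by side on chromosome 7 in the order Saa3, Saa4, Saa1, Saa2. Saa4, a serum amyloid A gene that is expressed constitutively in liver, was below the floor on all 4 arrays, with signals of 1.7 in the KO tumor and 0.5 in the WT tumor, against 47.5 in the KO gland and 15.0 in the WT gland. Of the 5 protein-coding genes on each side of the cluster, 5 of 10 had a probe set past the floor. Their tumor minus gland differences ran between -2.87 and 0.25 in KO and between -3.45 and 0.09 in WT, so none was 2-fold higher in a tumor. Neighbours here come from the gene order of assembly GRCm38.p6.

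Fibrinogen, the soluble precursor of the fibrin clot, is a dimer of 3 chains, and all 3 genes are needed for the complete plasma protein. Fgb, the beta chain, had signals of 5546 in the KO tumor and 7583 in the WT tumor, against 155 in the KO gland and 90.8 in the WT gland. It was 30.6-fold higher in the KO tumor than in the KO gland and 64.4-fold higher in the WT tumor than in the WT gland. Fgg, the gamma chain, had 1903 in the KO tumor and 5066 in the WT tumor, against 337 in the KO gland and 491 in the WT gland. Since Fgg was past the floor on all 4 arrays, its plain signal ratio can be read, at 5.65 in KO and 10.3 in WT.

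Fga, the alpha chain, showed no such signal. It had 7.0 in the KO tumor and 4.6 in the WT tumor, against 14.7 in the KO gland and 1.0 in the WT gland, all far below the floor, by the 1 probe set named for it. In the assembly the order of the genes on chromosome 3 is Fgg, Fga, Fgb, so the dim gene lies between the 2 bright ones. Of the 10 flanking genes 3 were past the floor. The nearest of them, Plrg1, a splicing factor, differed by 1.30 in KO and 0.85 in WT, the Wnt modulator Sfrp2 by 0.20 in KO and 0.65 in WT, and the innate receptor Tlr2 by 1.75 in KO and 2.05 in WT. All 3 were thus higher in the tumors, by less than Fgb and Fgg.

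Lcn2, which withholds iron from bacteria by binding their siderophores, had signals of 9424 in the KO tumor and 10169 in the WT tumor, against 2001 in the KO gland and 2341 in the WT gland. It was bright on every array and higher in both tumors, with plain ratios of 4.71 in KO and 4.34 in WT. Neutrophil granules also hold Lcn2. Of 16 neutrophil markers 14 were named, and their summed signal was 4012 in the KO tumor and 4588 in the WT tumor, against 3327 in the KO gland and 2752 in the WT gland. Most of that sum in both tumors and in the WT gland, but not in the KO gland, was the lactoferrin gene, whose signals are given below. Only 6 of the 14 passed the floor. In KO 1 of them was at least 2-fold higher in tumor and 4 lower, and in WT 2 were higher and 2 lower. Over all genes 12.4% were higher and 17.9% lower in KO, and 12.9% were higher and 16.6% lower in WT. S100a8 had 239 in the KO tumor and 741 in the WT tumor, against 409 in the KO gland and 105 in the WT gland, and S100a9 moved with it. Lactoferrin, Ltf, which milk-forming epithelium also makes, had 3261 in the KO tumor and 2962 in the WT tumor, against 1222 in the KO gland and 1623 in the WT gland. The granule protease gene Prtn3 differed by -1.34 in KO and -2.50 in WT, Ngp by -2.83 in KO and -1.33 in WT, and Mmp9 by -1.22 in KO and -0.41 in WT. For Ngp and Mmp9 both WT signals were below the floor. Elane, Mpo and Cxcr2 were below the floor on all arrays. No marker was at exactly 0, and the part of neutrophils in the Lcn2 signals was not tested.

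Hp, which captures free haemoglobin, had the smallest difference between tumor and gland of the 8 members past the floor. Its signals were 7370 in the KO tumor and 7870 in the WT tumor, against 4650 in the KO gland and 4614 in the WT gland. Both tumors lay above both glands, by plain ratios of 1.59 in KO and 1.71 in WT, within 2-fold. After scaling of the arrays to the same median Hp was 1.04 higher on the log2 scale in the KO tumor than in the KO gland.

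Orm1, an acid glycoprotein of plasma that binds drugs, had signals of 25.5 in the KO tumor and 84.8 in the WT tumor, against 2233 in the KO gland and 2479 in the WT gland. It was 42.8-fold lower in the KO tumor than in the KO gland and 22.4-fold lower in the WT tumor than in the WT gland, with both tumor signals below the floor. Its neighbours Orm3 and Orm2 were below the floor on all arrays, the highest value being 148 for Orm3 in the WT gland. White adipocyte markers moved with Orm1. Of 14 listed 12 were named, and 11 of the 12 were lower in tumor than in gland by at least 2-fold in each genotype, with summed signals of 13864 in the KO tumor and 13217 in the WT tumor, against 69369 in the KO gland and 72247 in the WT gland. Over all genes 17.9% were lower by that much in KO and 16.6% in WT. No adipocyte marker was listed at 0, and the part of these markers in the Orm1 difference was not tested. In bulk tissue fewer cells of a type and less RNA per cell cannot be told apart.

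**Figure D2:**
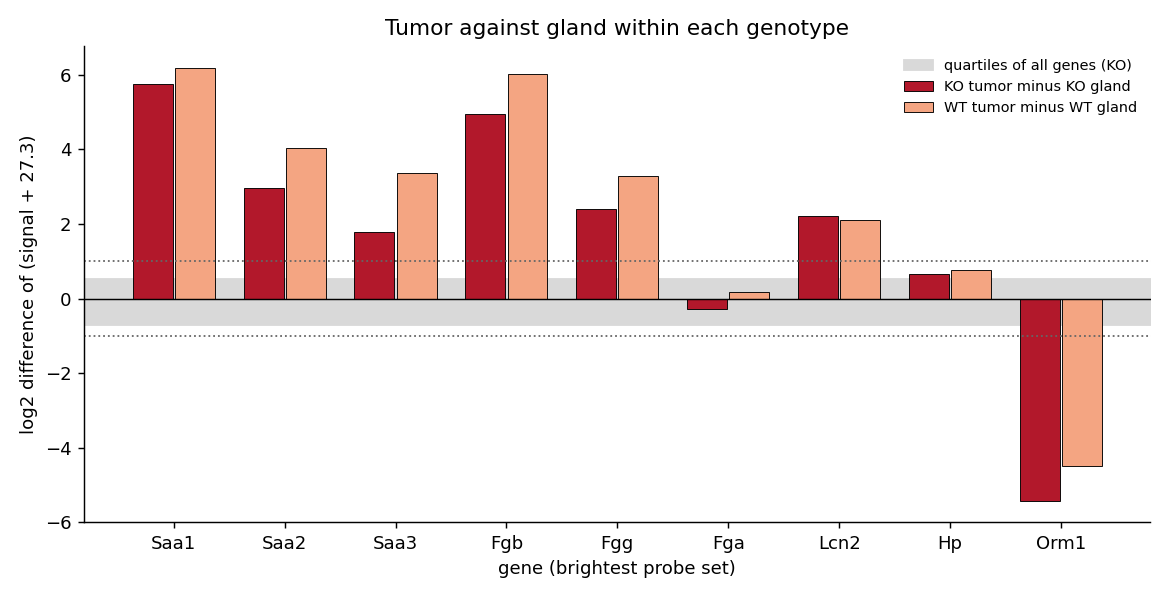
Difference between tumor and gland on the log2(signal + 27.3) scale for each gene's brightest probe set, KO (dark) left of WT (light), with the grey band from the lower to the upper quartile of all genes in KO and dotted lines at 2-fold. Bars for Saa1, Saa2, Saa3, Fgb, Fgg and Lcn2 stand above 2-fold in both genotypes, Hp stays within it, Fga is near 0 and Orm1 lies between -5.42 and -4.48.

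Counted over genes past the floor, 6 of the 8 were at least 2-fold higher in tumor than in gland and 1 was lower, in KO and in WT alike. Of all 8283 genes past the floor, 12.4% were higher and 17.9% lower in KO, and 12.9% were higher and 16.6% lower in WT. The members were chosen with these contrasts known, so nothing is read from that count. The median difference of the 8 was 2.31 in KO and 3.34 in WT, against -0.04 in KO and -0.03 in WT over all genes. Bringing the arrays to a common median moved the median of all genes to 0.34 in KO and 0.12 in WT, and changed the split of all genes in KO to 1753 higher and 1010 lower, in place of 1023 and 1479. Under that scaling 7 members were higher in KO, Hp being added, and 6 in WT.

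Of 24 hepatocyte markers, several of which other tissues express too, 22 were named, and 5 passed the floor. Albumin, Alb, had 6.2 in the KO tumor and 1.0 in the WT tumor, against 372 in the KO gland and 393 in the WT gland. Apoa1, Apob, Ahsg, Ttr, Apoh, Hnf4a and the prothrombin gene F2 were all below the floor on every array. The summed signal of the list was 2885 in the KO tumor and 2452 in the WT tumor, against 12421 in the KO gland and 13787 in the WT gland. In the tumors most of it was Arg1, at 2504 in KO and 2111 in WT, a gene that macrophages also express. In the glands most of it was Cyp2e1, at 7145 in KO and 7974 in WT, and Rbp4, at 3846 in KO and 4518 in WT, both of which fat cells also express. Apoc3 differed between tumor and gland by -1.92 in KO and -3.08 in WT, with both KO signals below the floor. No marker was listed at exactly 0, and the part of liver RNA in the signals of the acute-phase genes was not tested.

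Markers of the tissues themselves were as follows. Basal epithelial markers (8 of 8 named) summed to 30139 in the KO tumor and 32201 in the WT tumor, against 10286 in the KO gland and 10138 in the WT gland. Luminal markers (13 of 14) summed to 58753 in the KO tumor and 52892 in the WT tumor, against 26439 in the KO gland and 32049 in the WT gland. Skeletal muscle markers (10 of 10) summed to 858 in the KO tumor and 427 in the WT tumor, against 56583 in the KO gland and 58942 in the WT gland. The glands thus carried fat and muscle RNA that the tumors mostly lacked, and its part in the tumor and gland differences was not tested. The 3′ to 5′ signal ratio of the beta-actin control probe sets, a sign of RNA quality, was 1.29 in the KO tumor and 1.23 in the WT tumor, against 1.61 in the KO gland and 2.35 in the WT gland, so the WT gland stood apart. The part of this in the results was not tested either.

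Between genotypes, the KO tumor had lower signals than the WT tumor for each of the 8 genes past the floor. By sign alone, 51.8% of all genes past the floor were higher in the KO tumor. Of the 8 members Fgg had the largest difference, at -1.40 (2.64-fold lower), with 1903 in the KO tumor and 5066 in the WT tumor. Saa3 was 2.05-fold lower, Saa2 1.95-fold, and Saa1 1.78-fold by one probe set and 1.77-fold by the other. Fgb was 1.37-fold lower. Lcn2 differed by -0.11 and Hp by -0.09, which is less than the typical spread of 0.18 between probe sets of the same gene in that comparison. Orm1 was 2.12-fold lower, but both of its signals were below the floor, and its difference ran between -1.69 and -0.39 over the settings tried.

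At 2-fold, 3 of the 8 genes were lower in the KO tumor, Fgg, Saa3 and Orm1, and none was higher, against 1.94% of all genes lower and 2.12% higher. With these contrasts also in view when the genes were chosen, nothing is read from that count. It was 1, Fgg alone, with the median of all values as offset and 4, with Saa2, at an offset of 1. Other lists were lower on the same array. Of 13 keratinising epithelium markers past the floor 10 were at least 2-fold lower in the KO tumor, and the 14 named of 16 summed to 2823 in the KO tumor and 12877 in the WT tumor. Macrophage markers (14 of 14 named) summed to 27765 in the KO tumor and 36201 in the WT tumor, with 12 of 14 negative in sign and none past 2-fold. Luminal markers went the other way, with 10 of 11 past the floor positive in sign and none past 2-fold. Between the tumors 51.8% of all genes were positive in sign. No marker of the keratinising or macrophage list was at exactly 0. The part of these lists in the differences of the Saa and fibrinogen genes was not tested.

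In the gland no member was 2-fold higher or lower in KO than in WT, against 1.11% of all genes higher and 0.254% lower. With arrays brought to a common median, 43 genes were higher and 37 lower, in place of 92 and 21, and the median of all genes moved to -0.23. Of the members bright there, Hp differed by 0.01, Orm1 by -0.15 and Lcn2 by -0.22, none by more than the typical spread of 0.22 between probe sets of a gene. Fgg differed by -0.51, beyond that spread, with 337 in the KO gland and 491 in the WT gland. Under the common median the sign of Hp turned to negative. Fgb at 0.62 and Saa3 at 0.57 were higher in the KO gland, with all signals below the floor. Macrophage markers summed to 21458 in the KO gland and 15529 in the WT gland, with 14 of 14 positive in sign and 1 past 2-fold. Between the glands 52.2% of all genes were positive in sign. B cell markers (9 of 10 named) summed to 8124 in the KO gland and 3105 in the WT gland. The part of these cell types in the gland differences was not tested. Taking the genotype difference in tumor less that in gland, 3 of the 8 members were past 2-fold on the negative side, Saa3 at -1.60, Saa2 at -1.09 and Fgb at -1.07, and none on the positive side. Over all genes 4.19% lay past it on the negative side and 2.22% on the positive side. That count was between 0 and 5 over the settings tried, and it too uses arrays on which the members were chosen. Saa1 was counted by 1450788_at, at -0.45, while its other probe set, 1419075_s_at, was at -1.03, past 2-fold. In gland alone these probe sets differed in sign, at -0.39 and 0.21, with all gland signals below the floor.

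**Figure D3:**
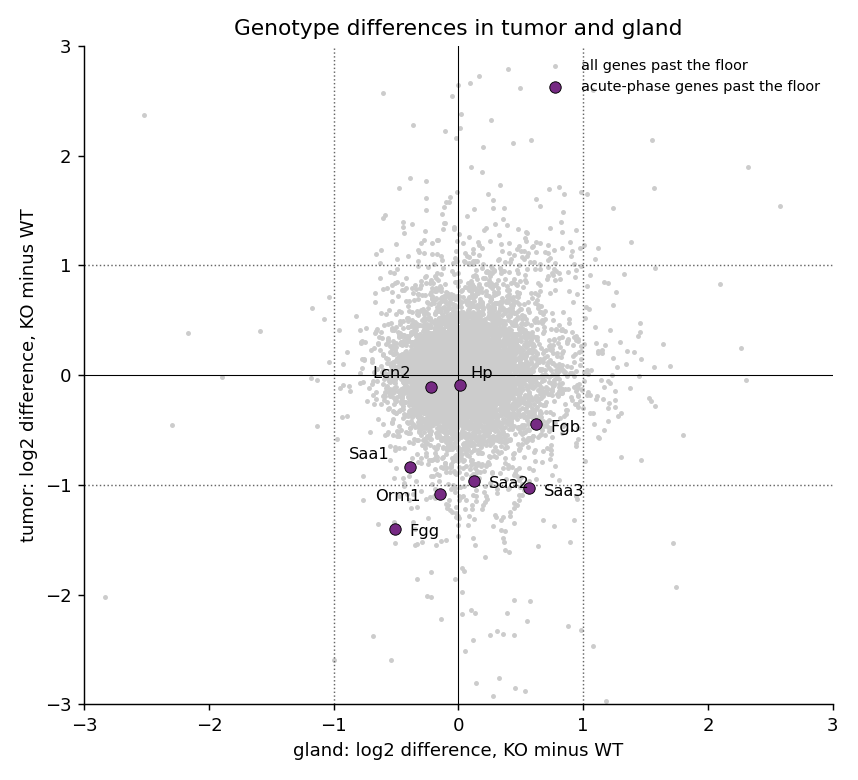
KO minus WT difference in the gland (horizontal) against that in the tumor (vertical), log2 scale, for the 8 acute-phase genes past the floor (purple) and all 8283 genes (grey), with dotted lines at 2-fold and 28 genes outside the axes. All 8 purple points lie below 0 on the tumor axis, with Fgg lowest at -1.40, and between -0.51 and 0.62 on the gland axis.

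Other positive acute-phase genes were taken from a list of 27, of which 24 were named and 11 passed the floor. In KO 5 of the 11 were at least 2-fold higher in tumor than in gland and 3 were lower, and in WT 6 were higher and 2 lower. Over all genes 12.4% were higher and 17.9% lower in KO, and 12.9% were higher and 16.6% lower in WT. The median difference was 0.75 in KO and 1.44 in WT, against -0.04 in KO and -0.03 in WT over all genes. Cd14, a receptor for bacterial lipopolysaccharide, was higher by 2.26 in KO and 2.73 in WT, and Cp, the copper-carrying ferroxidase ceruloplasmin, by 1.93 in KO and 1.64 in WT. The pentraxin Ptx3 was higher by 1.41 in KO and 1.47 in WT, the metallothionein Mt2 by 1.36 in KO and 2.11 in WT, and the protease inhibitor Timp1 by 1.25 in KO and 1.63 in WT.

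Serpina3n, an inhibitor of serine proteases, went the other way in KO. Its signals were 102 in the KO tumor and 344 in the WT tumor, against 836 in the KO gland and 438 in the WT gland. It was thus lowest in the KO tumor and highest in the KO gland, with a genotype difference of -1.52 in tumor and 0.89 in gland. Serping1, the C1 inhibitor, was lower in both tumors, with differences of -2.27 in KO and -1.69 in WT, and Vnn1, a pantetheinase, differed by -1.84 in KO and -2.26 in WT. The remaining 13 named genes of the list were below the floor on all 4 arrays, among them Crp, Apcs, Itih3, Itih4, Hpx, Hamp and Mbl2, which are made in liver. Between tumors, 2 of the 11 were at least 2-fold lower in KO and none was higher, Serpina3n and Steap4, a metalloreductase induced by inflammatory signals, with 2020 in the KO tumor and 5139 in the WT tumor. Over all genes 1.94% were lower in the KO tumor and 2.12% higher.

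Of 26 cytokines and cytokine receptors 22 were named and 15 passed the floor. In KO 1 was at least 2-fold higher in tumor and 5 lower, and in WT 2 were higher and 2 lower. The median difference was -0.46 in KO and -0.15 in WT, against -0.04 in KO and -0.03 in WT over all genes. Of all genes 12.4% were higher and 17.9% lower in KO, and 12.9% were higher and 16.6% lower in WT. Il1b, which encodes interleukin-1 beta, had 409 in the KO tumor and 347 in the WT tumor, against 87.0 in the KO gland and 47.5 in the WT gland. Il6 itself was below the floor throughout, with 21.9 in the KO tumor and 31.3 in the WT tumor, against 13.9 in the KO gland and 2.4 in the WT gland. Its receptor gene Il6ra was higher by 0.58 in the KO tumor than in the KO gland and by 1.58 in WT, and the shared signalling chain Il6st differed by -1.49 in KO and by -0.75 in WT. Il6ra passed the floor only in the WT tumor, so both of its KO signals were below it. The receptor genes Lifr (-1.15 in KO, -1.07 in WT) and Il1r1 (-0.81 in KO, -1.12 in WT), the glucocorticoid receptor gene Nr3c1 (-1.21 in KO, -0.88 in WT) and the cytokine gene Clcf1 (-1.86 in KO, -0.48 in WT) were among the lower ones. Both WT signals of Clcf1 were below the floor. Il1r2, a decoy receptor for interleukin-1, was the gene of the list lower past 2-fold in the KO tumor than in the WT tumor, at -1.04.

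Of 27 signalling and transcription factors 25 were named and 22 passed the floor. In KO 2 were higher in tumor and 2 lower, and in WT 2 were higher and 1 lower, with medians of -0.06 in KO and 0.08 in WT. Over all genes 12.4% were higher and 17.9% lower in KO, and 12.9% were higher and 16.6% lower in WT. Socs3, a feedback inhibitor that STAT3 induces, had 1140 in the KO tumor and 985 in the WT tumor, against 296 in the KO gland and 371 in the WT gland, a difference of 1.85 in KO and 1.34 in WT. Bcl3, a partner of NF-kB, was higher by 1.16 in KO and 0.83 in WT, and the NF-kB subunit gene Relb by 0.24 in KO and 1.02 in WT. Tyk2, a kinase of cytokine receptors, differed by -1.02 in KO and -0.76 in WT. Cebpa, a C/EBP factor of mature fat cells and hepatocytes, was lower in both tumors, with differences of -3.49 in KO and -3.27 in WT, in the same comparison in which the adipocyte markers were lower. Stat3 itself differed by 0.05 in KO and 0.08 in WT, Cebpb by 0.47 in KO and 0.32 in WT, and Cebpd by 0.37 in KO and 0.76 in WT.

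Receptors and partners of the acute-phase proteins were named for 32 of 35, and 25 passed the floor. In KO 2 were higher in tumor and 12 lower, and in WT 4 were higher and 9 lower. Over all genes 12.4% were higher and 17.9% lower in KO, and 12.9% were higher and 16.6% lower in WT. The median difference was -0.79 in KO and -0.41 in WT, against -0.04 in KO and -0.03 in WT over all genes. Tlr2, a receptor reported to respond to serum amyloid A, was higher by 1.75 in KO and 2.05 in WT. Plau, the urokinase that activates plasminogen and so fibrin breakdown, was higher by 2.41 in KO and 1.03 in WT, and was 1.45 higher in the KO tumor than in the WT tumor. It passed the floor only in the KO tumor, with signals of 73.1 in the WT tumor and 21.9 in the WT gland. F13a1, the A chain of the factor that cross-links fibrin, was lower in both, with differences of -1.71 in KO and -2.83 in WT. The KO tumor thus had more signal than the WT tumor for both Plau and F13a1, the only 2 of the 25 past 2-fold between tumors, while Fgg was lower there. Over all genes 2.12% were higher in the KO tumor and 1.94% lower. Cd163, the receptor that takes up haptoglobin bound to haemoglobin, differed by -2.28 in KO and -2.53 in WT. Slc22a17, a receptor for Lcn2, differed by -1.35 in KO and -0.53 in WT. Cd36, a scavenger receptor that fat cells also express (-4.73 in KO, -3.98 in WT), Thbd, the thrombin-binding thrombomodulin (-2.93 in KO, -3.13 in WT), and Cr2, a complement receptor of B cells (-2.79 in KO, -1.58 in WT), were lower in both tumors. The receptor gene C5ar1 differed by -2.01 in KO and -1.02 in WT, and the integrin gene Itgax by 0.84 in KO and 1.79 in WT. For Cr2 and C5ar1 both WT signals were below the floor. In gland Cr2 was 1.41 and C5ar1 1.03 higher in KO than in WT.

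Complement genes were named for 24 of 30, and 15 passed the floor. In KO 2 were at least 2-fold higher in tumor and 8 lower, and in WT 3 were higher and 5 lower, where over all genes 12.4% were higher and 17.9% lower in KO and 12.9% higher and 16.6% lower in WT. The median difference was -1.40 in KO and -0.45 in WT. Clu, an extracellular chaperone that limits the terminal pathway, was higher by 1.26 in KO and 1.88 in WT. C2, a protease of the classical pathway (-2.58 in KO, -3.02 in WT), the ficolin gene Fcna (-2.54 in KO, -3.04 in WT) and Hc, which encodes C5 (-2.38 in KO, -2.76 in WT), were lower in both. Vtn, vitronectin, differed by -2.44 in KO and -0.69 in WT, and the C1 protease genes C1ra by -2.06 in KO and -1.24 in WT and C1s1 by -2.04 in KO and -1.51 in WT. Between tumors Fcna was 1.13 and Masp1, a protease of the lectin pathway, 1.03 higher in KO than in WT. Both tumor signals of Fcna were below the floor, at 138 in KO and 48.6 in WT. Masp1 passed the floor only in the KO tumor, with 301 there and 133 in the WT tumor. C1qa, which macrophages make, had 4653 in the KO tumor and 4968 in the WT tumor, against 2890 in the KO gland and 1481 in the WT gland.

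Epithelial defence secretions were named for 21 of 24, and 16 passed the floor. Of these 9 were at least 2-fold higher in tumor and 2 lower in KO, and 12 were higher and none lower in WT. Over all genes 12.4% were higher and 17.9% lower in KO, and 12.9% were higher and 16.6% lower in WT. The median difference was 1.32 in KO and 1.96 in WT, against -0.04 in KO and -0.03 in WT over all genes. Pigr, which carries antibodies across epithelia, was higher by 3.95 in KO and 2.90 in WT, and the protease inhibitor Slpi by 3.05 in KO and 3.10 in WT. Chil1, a chitinase-like protein, was higher by 3.69 in KO and 4.32 in WT, and the neutrophil-attracting chemokine genes Cxcl5 by 3.10 in KO and 3.38 in WT and Cxcl1 by 2.69 in KO and 2.23 in WT. The chemokine gene Ccl20 was higher by 2.67 in KO and 1.83 in WT. It passed the floor only in the KO tumor, so both of its WT signals were below it. S100a8 and S100a9, the calprotectin genes of neutrophils and stressed keratinocytes, differed between genotypes. S100a9 had 93.7 in the KO tumor and 433 in the WT tumor, against 318 in the KO gland and 75.8 in the WT gland, so that the KO tumor was below the KO gland and the WT tumor above the WT gland.

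**Figure D4:**
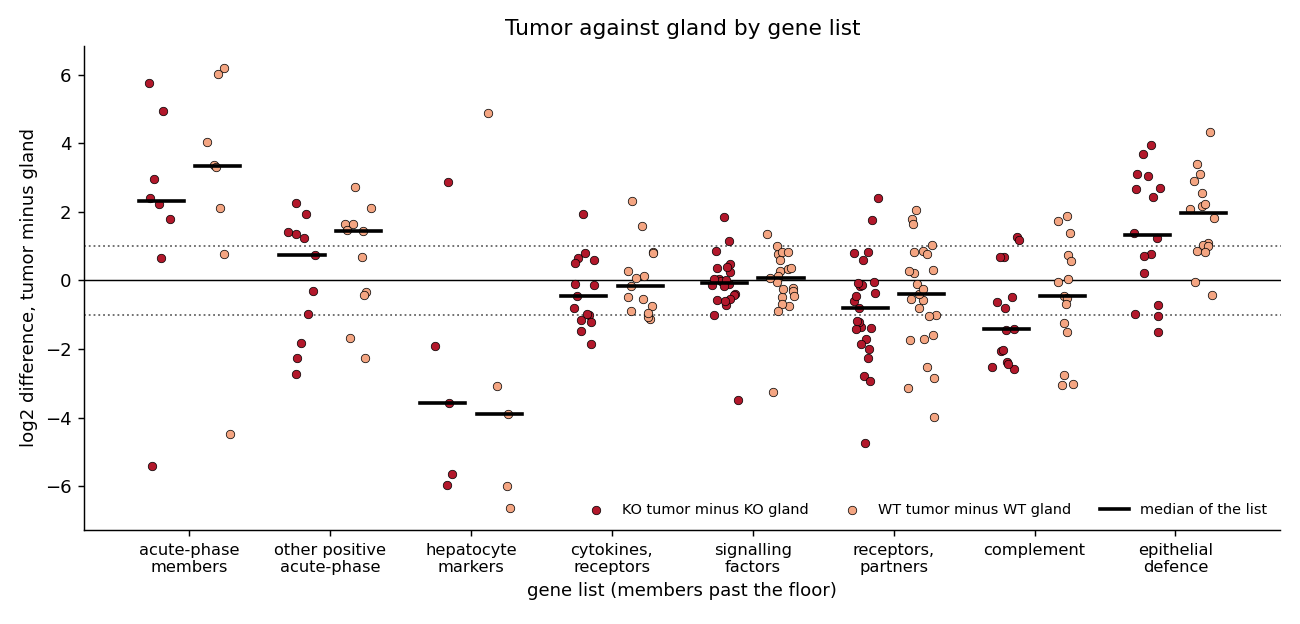
Difference between tumor and gland on the log2 scale for the genes past the floor in each list, KO (dark) left of WT (light), each point a gene and each thick line the median of the list, with dotted lines at 2-fold. The medians of the acute-phase genes are 2.31 in KO and 3.34 in WT, those of other positive acute-phase genes 0.75 in KO and 1.44 in WT, and 4 of the 5 hepatocyte markers lie below -1.

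Genes with a pattern over the 4 arrays most like that of a member were found by the distance between log2 values centred on each gene's mean. Nearest to Saa3, of 1584 candidates, were Dusp14, a phosphatase (0.28), Sphk1, a kinase that makes sphingosine-1-phosphate (0.31), and Ocstamp, a membrane protein of osteoclast fusion (0.32). Dusp14 had 275 in the KO tumor and 532 in the WT tumor, against 61.6 in the KO gland and 43.1 in the WT gland. Nearest to Lcn2, of 2717, were Lrrc26, a potassium channel subunit of secretory epithelium (0.08), the collagen receptor Ddr1 (0.10) and Piwil2 (0.12). Ddr1 had 4651 in the KO tumor and 5195 in the WT tumor, against 948 in the KO gland and 1072 in the WT gland.

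For Fgg, the fibrinogen gene with the highest mean log2 value, the nearest of 1291 were Klk1b1 (0.50), a kallikrein, and the smooth muscle protein gene Cnn1 (0.50), followed by Ocstamp (0.60). Cnn1 had 1712 in the KO tumor and 3936 in the WT tumor, against 408 in the KO gland and 376 in the WT gland. The nearest to Hp, of 6890, were Thoc3, Lap3 and Cnbp, all within 0.04. With 4 arrays many genes lie this near, and nothing further is read from the distances.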

How the data were processed

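Total RNA of mammary tumors and glands was hybridised to 1-colour Affymetrix arrays, 1 array per pool. The authors deposited linear signal intensity values, 1 per probe set and array, for 22690 probe sets. The sources used here do not name the software that made these intensity values. Trimmed means of the 4 arrays, leaving out 2% at each end, were 500, so the deposited intensity values were already scaled, and no further scaling was applied. Array medians were 153 in the KO tumor and 151 in the WT tumor, against 199 in the KO gland and 167 in the WT gland. The values come with no detection calls. Precision is limited by the number of arrays.

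Of the probe sets 20393 had 1 gene symbol in the platform annotation, 691 several and 1606 were not listed, and 20364 symbols were checked or updated by gene ID. Values were log2(signal + 27.3). The probe set with the highest mean stood for a gene. A gene entered counts if its highest value reached the median of all values (log2 of 7.61). A difference counted at 2-fold. No test was run. The typical spread between probe sets of a gene was taken over 2766 genes with several, from the difference between the 2 brightest. It is scaled as a standard deviation of 1 probe set, so the difference between 2 probe sets of a gene is typically larger. The members, gene lists and settings were chosen with earlier results of these data known.

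Named genes were every member, in the lists of acute-phase, upstream, partner, complement, defence, hepatocyte and neutrophil genes the up to 6 with the largest differences past 2-fold per comparison, and the 3 nearest genes in pattern. The same rule's genes in the other cell marker lists are mostly given as sums or counts only. Il6, Stat3, Cebpb, Cebpd, Slc22a17, the flanking genes and the list members named as below the floor were chosen after their values were seen. The counting was tested on simulated data. Promoter sequences came from RefSeq tables, which held 7 of the 9 measured genes. Alternatives were other offsets, scalings, floors and probe set rules. Python 3.11.15, pandas 2.3.3, numpy 2.4.6, matplotlib 3.10.9 and Biopython 1.88 were used.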

Additional observations from a re-analysis of the deposited data

Results flagged for a closer look

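For 4 of 19 acute-phase genes past the floor the KO tumor was below the WT tumor and the KO gland above the WT gland, each by more than the typical spread between probe sets of a gene (0.18 in tumor, 0.22 in gland), or 21.1%, against 7% of all 8283 genes. Counted by sign alone, 9 of the 19 had this pattern, against 24.7% of all genes. The genes were chosen with these arrays in view, so nothing is read from these shares. With 1 array per group the difference between tissues was not tested. The tumor difference less the gland difference was -1.60 for Saa3, -1.07 for Fgb, -2.41 for Serpina3n and -0.59 for Serping1, on the log2 scale. For Saa3 and Fgb both gland signals were below the floor. The gland difference of Serping1 was 0.235, barely past the spread of 0.224. That of Saa3 ran between 0.20 and 0.87 over the settings tried, so it was not past the spread in all of them. With arrays brought to a common median, the median of all genes in gland moved to -0.23, so small gland differences depend on the scaling.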

How the results depend on the processing

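Of 345 member differences recomputed under other settings, 301 stayed within the spread between probe sets and 44 moved further. The sign of KO against WT in gland was not settled for Saa1 (-0.42 to 0.64), Saa2 (-0.00 to 0.35) or Hp (-0.25 to 0.15). For Saa1 the upper end came from 1419075_s_at, which stood for the gene at an offset of 1. On the main scale that probe set differed by 0.21 in gland, and 1450788_at by -0.39. No paired analysis was possible because each group had 1 array. The text's counts of genes past 2-fold changed by over 1.5 times as follows. At an offset of 1, KO against WT gave 181 higher and 40 lower in gland and 281 higher in tumor. With the median of all values as offset, 20 were higher in the KO gland, 62 higher and 77 lower in the KO tumor against WT, 662 higher and 908 lower in KO tumor against gland, and 671 higher and 813 lower in WT. With a common median, 43 were higher and 37 lower in the KO gland against WT, and 1753 higher in KO tumor against gland. Quantile normalization gave 33 lower in the KO gland. Other counts changed by less under it, with 62 higher in the KO gland. It split tumor against gland into 1234 higher and 1254 lower in KO and 1124 higher and 1212 lower in WT. Without the floor, 147 were higher and 34 lower in the KO gland, and 2286 lower in KO tumor against gland. With the floor on the mean, 43 were higher and 8 lower in the KO gland, and 107 higher and 98 lower in the KO tumor against WT. Without probe sets that may be shared, 11 were lower in the KO gland. Of the members, 3 in KO and 3 in WT were then higher in tumor than in gland. The only probe sets of Saa2, Saa3 and Lcn2 may be shared, so these genes were left out under that setting. With the median as offset, 1 member was lower in the KO tumor than in the WT tumor.

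The tumor difference of the genotypes less the gland difference was past 2-fold and positive for 184 genes and negative for 347, 3 of them members. It was positive for 82 and negative for 141 with the median as offset, positive for 335 and negative for 211 with a common median, positive for 227 and negative for 267 with quantile normalization, and negative for 532 without the floor and for 221 with the floor on the mean. Members past it were 5 at an offset of 1, 0 with the median as offset, and 1 each with quantile normalization, with the floor on the mean and without shared probe sets. At an offset of 1 they included Saa1, by 1419075_s_at in place of 1450788_at. Saa2 and Saa3 were left out both with the floor on the mean, which their means did not reach, and without shared probe sets. Low signals near background limit Saa1, Saa2, Saa3 and Fgb in gland, Orm1 in tumor and Fga throughout.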
